A study of Mus musculus with 36 samples.

Results

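The 10 genes described here encode the enzymes that hydroxylate collagen chains and crosslink the finished fibres: P4ha1, P4ha2, P4ha3 and P4hb, Plod1, Plod2 and Plod3, and Lox, Loxl1 and Loxl2. They were picked by symbol, which gave 10 rows of the 26400 in the count table, and all 10 passed the filter on low counts in both cell fractions, Loxl1 only through its C166 libraries. The study sequenced RNA from 2 mouse cell lines. C166 is an endothelial line from yolk sac, and C1.1 is a clone made from it by CRISPR that lacks 1 genomic copy of the mmu-miR-466c hairpin, in an intron of Sfmbt2 where further copies remain. Each line was grown in normoxia or in 1% O2 hypoxia for 2h or 24h, and RNA of the cytoplasm and of the nucleus was sequenced separately, which gave 12 groups of 3 libraries. C1.1 is a single clone, so an effect of the deletion and a trait of that clone cannot be told apart.

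Cytoplasmic libraries held 20745543 to 28667821 counts and nuclear libraries 15314724 to 24940907. One library stood apart: replicate 1 of C166 cytoplasm in normoxia had counts for 11903 genes, against 16393 and 16712 in the other libraries of that group, and results that turn on it are given with and without it. Sfmbt2, the host gene of the deleted copy, lay between 15.5 and 20.5 counts per 1000000 counts (CPM) in normoxic C166 cytoplasm and between 19.4 and 24.7 in C1.1, but its exons lie outside the deletion and do not check the genotype. A control list of 8 targets of the hypoxia-inducible factor HIF was higher at 24h for 8 of 8 genes in each line and fraction. In normoxia 7 of these 8 were already higher in C1.1 than in C166 in the cytoplasm (median log2 difference 1.09) and 6 in the nucleus (0.58), and the 24h response of Bnip3, Slc2a1 and Vegfa was smaller in C1.1 in both fractions. The part of these differences in the comparisons between lines was not tested. Of the endothelial markers, Pecam1, Cdh5, Kdr and Tie1 were under 1 CPM in every library, so these transcripts do not bear out the endothelial label. The 7 endothelial markers with a row, of 10 listed, summed to between 1.65 and 14.8 CPM, blood cell markers to at most 4.94 and epithelial markers to at most 1.36. In each group 4 to 6 of these 7 endothelial markers stayed under 1 CPM. Flt1 was not among them in any C166 group, but was under 1 CPM in every C1.1 library. Smooth muscle and mesenchyme markers were abundant as a sum, which moved with both line and oxygen. In each group 2 or 3 of the 10 stayed under 1 CPM, Lum always among them. Not all moved alike: in normoxic cytoplasm 6 of 9 tested were lower in C1.1 and Dcn was higher. At 24h 5 fell in C1.1 cytoplasm while Pdgfra and Pdgfrb rose. The summed level of the 10 markers was 4875.4 to 6360.0 CPM in normoxic C166 cytoplasm, 958.5 to 1208.1 after 24h, and 1424.1 to 1639.3 and 582.9 to 634.6 at the same times in C1.1. In the nucleus the sums were 3308.0 to 4114.7 and 787.8 to 1181.7 CPM in C166, and 910.6 to 972.9 and 719.3 to 818.5 in C1.1.

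Fibrillar collagens are built in the endoplasmic reticulum, where prolyl 4-hydroxylase converts prolines to 4-hydroxyproline, which lets the triple helix hold at body temperature. The lysyl hydroxylases mark lysines that later carry sugars or form crosslinks, and the lysyl oxidases act outside the cell, where they turn lysines into reactive aldehydes that join neighbouring molecules. The hydroxylases use oxygen, iron and 2-oxoglutarate, the lysyl oxidases use oxygen and copper, and several genes of the group are known from mammalian cells as targets of HIF, which binds a short core written ACGTG or GCGTG.

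Promoter windows from RefSeq (GRCm38.p6, 250 bases before to 50 after the start of the gene) were found for 6 of the 10 genes, P4ha1, P4ha2, P4ha3, P4hb, Plod1 and Plod3. Those for Plod2, Lox, Loxl1 and Loxl2 are not shown. In 5 of these 6 windows ACGTG or GCGTG occurred on either strand, beside 43.8% of all 32851 windows in the table. ACGTG itself, which overlaps the hexamer CACGTG bound by other factors, occurred in 4 of the 6 beside 19.6% of all windows. Stretches are shown for the 5 genes whose window held a match, whatever their response. Each runs from 20 bases before the first match to 20 after the last match upstream of the start, or to the start itself. They read 5′ to 3′ on the strand of the gene, and capitals mark ACGTG or GCGTG, or their reverse complements CACGT and CACGC.
P4ha1, chr10:59323113-59323295, plus strand: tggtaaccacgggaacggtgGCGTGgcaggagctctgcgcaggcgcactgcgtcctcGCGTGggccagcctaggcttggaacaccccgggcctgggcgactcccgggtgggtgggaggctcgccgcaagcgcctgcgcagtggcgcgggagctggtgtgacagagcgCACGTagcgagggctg
P4ha2, chr11:54100797-54100879, plus strand: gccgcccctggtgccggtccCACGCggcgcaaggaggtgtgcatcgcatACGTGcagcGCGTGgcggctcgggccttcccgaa
P4hb, chr11:120573285-120573478, minus strand: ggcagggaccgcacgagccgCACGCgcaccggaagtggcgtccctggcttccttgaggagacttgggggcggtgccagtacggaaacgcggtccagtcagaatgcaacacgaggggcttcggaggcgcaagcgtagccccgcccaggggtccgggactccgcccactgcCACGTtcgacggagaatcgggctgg
Plod1, chr4:147936777-147936816, minus strand: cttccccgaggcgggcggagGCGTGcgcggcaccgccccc
Plod3, chr5:136986847-136986989, plus strand: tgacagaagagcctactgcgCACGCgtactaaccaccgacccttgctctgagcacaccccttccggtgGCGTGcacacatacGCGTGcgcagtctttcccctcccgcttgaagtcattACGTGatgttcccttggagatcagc
The RefSeq start used for P4ha2 lies 829 bases downstream of the gene start in GENCODE, and that for Plod1 differs by 9 bases. The matches in P4ha1 begin 163, 126 and 16 bases before the start, and those shown for P4ha2 begin 107, 78 and 69 bases before it. Plod3 held 4 matches and P4ha3 held 0. A match of 5 letters is a description of these windows and not a site of binding.

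P4hb had the highest level of the 10 genes in normoxia in both fractions and both lines when CPM were divided by exon length. It encodes protein disulfide isomerase, the beta subunit of prolyl 4-hydroxylase and an abundant chaperone in its own right. In normoxic C166 nuclei P4hb stood at 464 CPM per kilobase, Lox at 100, P4ha1 at 51.8, Plod3 at 40.8 and Plod2 at 19.5, each apart from its neighbours in every library. Loxl1 (11.8 CPM per kilobase), P4ha3 (9.89), P4ha2 (8.34) and Plod1 (7.87) followed, with ranges that overlapped from each to the next, and Loxl2 was lowest at 5.92. After 24h of hypoxia the order in C166 nuclei was P4hb at 902 CPM per kilobase, Lox at 459, P4ha1 at 164, Plod2 at 103, P4ha2 at 78.5, Plod3 at 43.3 and Loxl2 at 29.1. Plod1 (9.67), P4ha3 (8.49) and Loxl1 (6.66) then stood lowest. P4ha2 thus moved from the eighth place to the fifth, where its range overlapped that of Plod2. In C166 cytoplasm at 24h Lox and P4hb had overlapping ranges at 305 and 260 CPM per kilobase.

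To follow the response to prolonged hypoxia, each line was compared at 24h with its own normoxia within a fraction. In the nucleus, 7 of the 10 genes rose and 1 fell in C166, beside 19.2% of all 15735 genes tested that rose and 18.4% that fell. In C1.1 nuclei 8 rose and 0 fell, beside 22.3% and 20.5% of all genes. In the cytoplasm 5 rose and 0 fell in C166, beside 18.2% and 17.5% of the 14998 genes tested there, and in C1.1 9 rose, beside 18% of all genes that rose and 18.1% that fell. Loxl1 also counts as fallen in C1.1 cytoplasm, but it was tested there only because C166 carried it past the filter, and with only the C1.1 libraries compared the count was 9 of 9 tested. The median log2 difference of the 10 genes was 1.31 in C166 nuclei and 1.70 in C1.1 nuclei, where the median over all genes was 0.00, and 0.66 and 1.21 in the cytoplasm, where it was 0.08 and 0.03. P4ha1, P4ha2, Plod2, Lox and Loxl2 rose in each of these 4 comparisons, and their calls held without any single library of the comparison. Tests were edgeR's quasi-likelihood tests adjusted over all genes of the fraction, and a difference was called at an adjusted p under 0.05. Whether the libraries of a group are separate cultures is not given in the labels, and the p-values then reflect library-to-library spread only. In bulk RNA fewer cells of a type and less RNA per cell cannot be told apart. Of the 9 smooth muscle and mesenchyme markers tested, 6 fell and 0 rose in C166 cytoplasm, 5 fell and 2 rose in C1.1 cytoplasm, 6 fell and 1 rose in C166 nuclei, and 3 fell and 3 rose in C1.1 nuclei. Their part in these results was not tested.

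**Figure D1:**
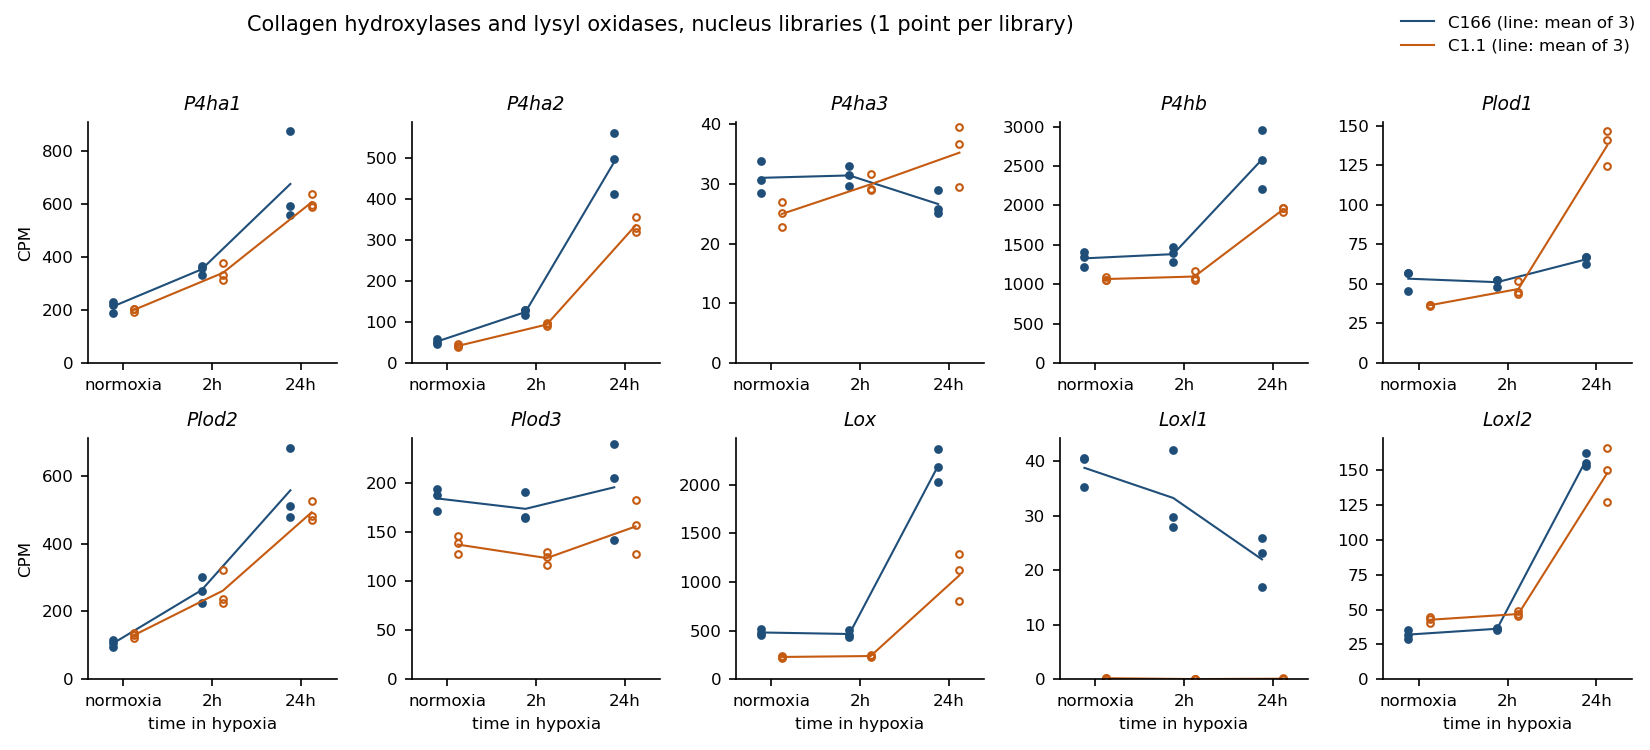
CPM of each of the 10 genes in every nuclear library (y axis, 1 panel per gene) against normoxia, 2h and 24h of hypoxia, with filled points for C166, open points for C1.1 and lines through the means of 3 libraries. P4ha2 climbs from 46.2 to 57.6 CPM in normoxic C166 to at least 412.2 at 24h, Plod1 climbs mainly in C1.1, and Loxl1 lies near 0 in C1.1 throughout.

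Among the prolyl 4-hydroxylase genes, P4ha2 moved most. P4ha2 and P4ha1 encode alternative catalytic alpha subunits, of which P4ha1 is the form found in most cells. P4ha2 (11:54100095-54131665, plus strand, GRCm38) stood at 46.2, 52.3 and 57.6 CPM in normoxic C166 nuclei and at 412.2, 560.7 and 495.7 after 24h. No library of the 24h group came near the normoxic range, and the difference was 3.23 on the log2 scale (standard error, SE, 0.11, adjusted p = 6.97e-18, 9.41-fold). In C1.1 nuclei it went from 41.5, 38.0 and 45.4 CPM to 355.5, 329.5 and 319.9, a log2 difference of 3.01 (SE 0.11, adjusted p = 4.38e-17). These groups did not overlap either. Cytoplasmic P4ha2 was 23.3, 11.7 and 13.5 CPM in normoxic C166 and 93.6, 86.6 and 69.3 at 24h, a log2 difference of 2.37 (SE 0.22, adjusted p = 6.24e-08). In C1.1 cytoplasm it was 9.78, 9.33 and 8.32 CPM and then 71.2, 59.5 and 58.8, a log2 difference of 2.79 (SE 0.22, adjusted p = 8.07e-09).

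P4ha1 (10:59323296-59373304, plus strand) started from a higher level and rose less. Its nuclear CPM in C166 were 190.2, 217.3 and 231.9 in normoxia and 558.9, 875.1 and 592.5 at 24h, a log2 difference of 1.66 (SE 0.12, adjusted p = 2.4e-11, 3.17-fold), and replicate 2 was the highest at 24h. In C1.1 nuclei the 24h libraries were tight, at 636.7, 595.0 and 588.0 CPM against 205.1, 192.0 and 204.8, a log2 difference of 1.60 (SE 0.12, adjusted p = 4.58e-11). In the cytoplasm P4ha1 went from 79.8, 74.0 and 71.4 CPM to 165.3, 150.2 and 109.6 in C166, and from 69.7, 62.0 and 58.7 to 157.4, 115.5 and 104.5 in C1.1. The cytoplasmic groups did not overlap in either line, with log2 differences of 0.92 (SE 0.18, adjusted p = 0.000529) and 0.99 (SE 0.18, adjusted p = 0.000217).

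P4hb (11:120560298-120573253, minus strand) rose in both nuclei, from 1220.9, 1349.8 and 1411.9 CPM to 2206.1, 2961.9 and 2577.7 in C166 (log2 difference 0.96, SE 0.09, adjusted p = 1.91e-09). In C1.1 nuclei it rose from 1085.6, 1052.3 and 1057.3 CPM to 1913.9, 1972.4 and 1961.5 (log2 difference 0.87, SE 0.09, adjusted p = 8.07e-09). Neither pair of nuclear groups overlapped. The cytoplasm was less clear: C166 libraries stood at 638.0, 637.2 and 603.2 CPM in normoxia and at 944.2, 654.6 and 630.3 at 24h, where replicate 1 alone stood high and the test was not passed (log2 difference 0.25, SE 0.15, adjusted p = 0.209). In C1.1 cytoplasm P4hb went from 579.3, 500.8 and 433.5 CPM to 717.6, 635.4 and 662.3 (log2 difference 0.41, SE 0.15, adjusted p = 0.035). That call was lost without replicate 2 (0.40, adjusted p = 0.0914) or 3 (0.31, 0.172) of the normoxic group, or replicate 1 (0.36, 0.116) or 3 (0.42, 0.0696) of the 24h group.

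P4ha3 (7:100285520-100319699, plus strand), the gene of a less abundant alpha subunit, did not follow its relatives in C166. Its nuclear CPM were 30.7, 33.9 and 28.5 in normoxia and 25.8, 29.0 and 25.2 at 24h, which overlapped (log2 difference −0.22, SE 0.12, adjusted p = 0.158). In C1.1 nuclei it went from 22.8, 27.0 and 25.1 CPM to 39.5, 36.7 and 29.4, without overlap (log2 difference 0.50, SE 0.12, adjusted p = 0.00141). Cytoplasmic P4ha3 in C166 was 7.85, 17.6 and 22.1 CPM in normoxia, the most scattered of the group, and 25.2, 18.9 and 18.8 at 24h (log2 difference 0.40, SE 0.24, adjusted p = 0.201). Without replicate 3 of normoxic C166 cytoplasm that difference was 0.71 with an adjusted p of 0.0267. In C1.1 cytoplasm P4ha3 rose from 14.0, 16.1 and 15.2 to 31.4, 24.9 and 32.8 CPM (log2 difference 0.98, SE 0.24, adjusted p = 0.00269).

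**Figure D2:**
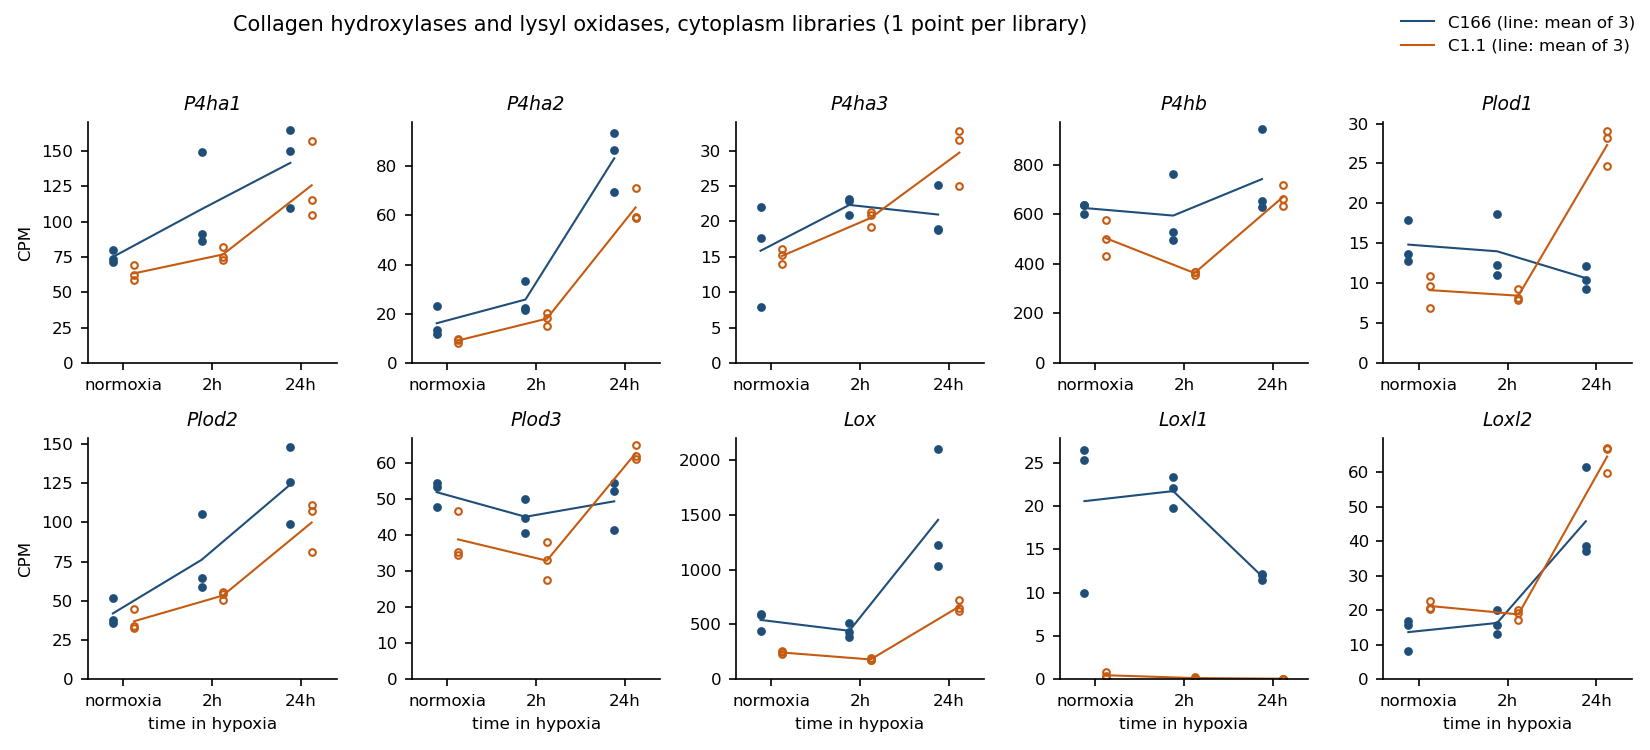
CPM of each of the 10 genes in every cytoplasmic library (y axis, 1 panel per gene) against normoxia, 2h and 24h of hypoxia, with filled points for C166, open points for C1.1 and lines through the means of 3 libraries. Lox in C166 spreads from 1038.2 to 2108.1 CPM at 24h, and replicate 1 of normoxic C166 is the lowest of its group for P4ha3, Loxl1 and Loxl2.

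Of the lysyl hydroxylases, Plod2 rose in both lines and both fractions, Plod1 rose strongly in C1.1, and Plod3 passed the test in C1.1 cytoplasm. Plod2 encodes the enzyme that hydroxylates lysines in the collagen telopeptides, the short ends from which the stable crosslinks of fibrosis are made. Plod2 (9:92542223-92608428, plus strand) was at 94.6, 105.5 and 114.9 CPM in normoxic C166 nuclei and at 510.5, 681.7 and 478.4 at 24h, with no overlap and a log2 difference of 2.41 (SE 0.14, adjusted p = 1.95e-13, 5.30-fold). In C1.1 nuclei it went from 136.0, 122.2 and 130.9 to 481.6, 468.3 and 526.4 CPM (log2 difference 1.92, SE 0.13, adjusted p = 1.08e-11). Cytoplasmic Plod2 also separated fully by time. It went from 51.9, 37.9 and 36 to 148.1, 125.8 and 98.9 CPM in C166 (log2 difference 1.57, SE 0.20, adjusted p = 4.76e-06). In C1.1 cytoplasm it went from 44.5, 33.9 and 32.4 to 111.2, 107.5 and 81.3 CPM (log2 difference 1.44, SE 0.20, adjusted p = 1.02e-05). Plod2 shares 346 exonic bases with Gm38391 on the other strand, and since the strand setting of the counting is not given in the sources used here, reads from such overlaps cannot be told apart. The same holds for Plod3 and Znhit1 (529 bases), Loxl2 and Gm27177 (301 bases) and Lox and AC161119.1 (30 bases).

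Plod1 (4:147909753-147936767, minus strand) encodes the lysyl hydroxylase of the helical part of collagen. In C1.1 nuclei Plod1 stood at 36.7, 36.4 and 36.3 CPM in normoxia and at 146.7, 140.8 and 124.5 after 24h, a log2 difference of 1.91 (SE 0.10, adjusted p = 8.41e-14, 3.77-fold). In C166 nuclei it stood at 45.6, 57.1 and 57.0 CPM and then at 62.4, 66.9 and 67.0. The C166 groups did not overlap, but the difference was small (log2 0.30, SE 0.10, adjusted p = 0.0203). It was lost without replicate 1 of the normoxic group (0.18, adjusted p = 0.217) and without replicate 2 (0.28, 0.054) or 3 (0.27, 0.0668) of the 24h group. In the cytoplasm the 2 lines went apart. In C1.1 Plod1 rose from 9.64, 10.8 and 6.92 CPM to 29.1, 28.2 and 24.6 (log2 difference 1.58, SE 0.21, adjusted p = 6.68e-06). In C166 it was 18, 13.7 and 12.8 CPM in normoxia and 12.2, 10.4 and 9.31 at 24h, a log2 difference of −0.48 that did not pass the test (SE 0.21, adjusted p = 0.0861).

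Plod3 (5:136987019-136996648, plus strand), whose product also transfers sugars to hydroxylysine, was at 171.5, 193.6 and 188.4 CPM in normoxic C166 nuclei and at 141.9, 239.9 and 205.7 at 24h. The groups overlapped and the log2 difference was 0.09 (SE 0.13, adjusted p = 0.651), while in C1.1 nuclei it was 0.18 (SE 0.13, adjusted p = 0.295). Cytoplasmic Plod3 was 53.3, 47.8 and 54.3 CPM in normoxic C166 and 54.3, 52.2 and 41.3 at 24h, again overlapping (log2 difference −0.07, SE 0.14, adjusted p = 0.724). In C1.1 cytoplasm it rose from 46.6, 34.4 and 35.3 to 61.0, 64.9 and 61.8 CPM (log2 difference 0.69, SE 0.14, adjusted p = 0.000553).

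The lysyl oxidase genes parted at 24h, with Lox and Loxl2 higher in both lines and fractions and Loxl1 lower in C166 nuclei. Lox (18:52516067-52529867, minus strand) encodes the founding lysyl oxidase, which crosslinks collagen and elastin. Nuclear Lox was 453.2, 512.1 and 474.6 CPM in normoxic C166 and 2373.1, 2029.2 and 2183.4 at 24h, a log2 difference of 2.19 (SE 0.12, adjusted p = 6.51e-14, 4.57-fold). In C1.1 nuclei it started lower, at 240.0, 230.3 and 213.0 CPM, and reached 799.2, 1118.1 and 1287.4, a log2 difference of 2.23 (SE 0.12, adjusted p = 5.98e-14). The cytoplasm gave differences of 1.43 (SE 0.18, adjusted p = 4.11e-06) in C166 and 1.45 (SE 0.18, adjusted p = 2.64e-06) in C1.1. The C166 libraries behind the first were 583.8, 597.1 and 442.8 CPM in normoxia and 2108.1, 1038.2 and 1224.1 at 24h, with replicate 1 far above the others. Those of C1.1 were 249.7, 254.2 and 225.7 and then 621.2, 721.0 and 652.1 CPM, so that neither line's groups overlapped.

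Loxl2 (14:69609068-69695834, plus strand), a crosslinking enzyme of basement membrane collagen IV, rose from 28.6, 31.8 and 35.5 to 153.0, 162.7 and 155.5 CPM in C166 nuclei (log2 difference 2.30, SE 0.10, adjusted p = 2.06e-15). In C1.1 nuclei it rose from 43.1, 40.1 and 44.6 to 127.2, 150.4 and 166.3 CPM (log2 difference 1.80, SE 0.10, adjusted p = 1.72e-13). Both nuclear pairs were far apart relative to their spread. In C166 cytoplasm Loxl2 went from 8.28, 16.9 and 15.6 CPM to 61.6, 38.6 and 37.2 (log2 difference 1.75, SE 0.22, adjusted p = 4.22e-06). In C1.1 cytoplasm it went from 20.6, 22.8 and 20.2 to 59.8, 66.8 and 67.0 CPM (log2 difference 1.61, SE 0.22, adjusted p = 7.05e-06).

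Loxl1 (9:58287738-58313186, minus strand), known for the upkeep of elastic fibres, went the other way. In C166 nuclei it fell from 35.3, 40.5 and 40.4 CPM to 16.9, 25.8 and 23.1, without overlap (log2 difference −0.82, SE 0.18, adjusted p = 0.000923). In C166 cytoplasm it stood at 9.90, 25.3 and 26.5 CPM in normoxia and at 12.1, 11.5 and 12 at 24h, where the low replicate 1 of normoxia made the groups overlap (log2 difference −0.79, SE 0.35, adjusted p = 0.0876). Without that library the difference was −1.13 with an adjusted p of 0.000704. In C1.1 few reads of the gene were counted: the cytoplasmic counts were 22, 5 and 11 in normoxia and 1, 1 and 1 at 24h. The summed counts, 38 and 3, gave an 11-fold lower level after scaling for depth (95% exact interval 3.49 to 55.7, counting error only). No test is given for Loxl1 within C1.1, since the gene does not pass the filter in those libraries alone. In C1.1 nuclei the counts were 5, 1 and 3 and then 2, 2 and 0, a ratio of 2.36-fold with an interval of 0.658 to 10.5.

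**Figure D3:**
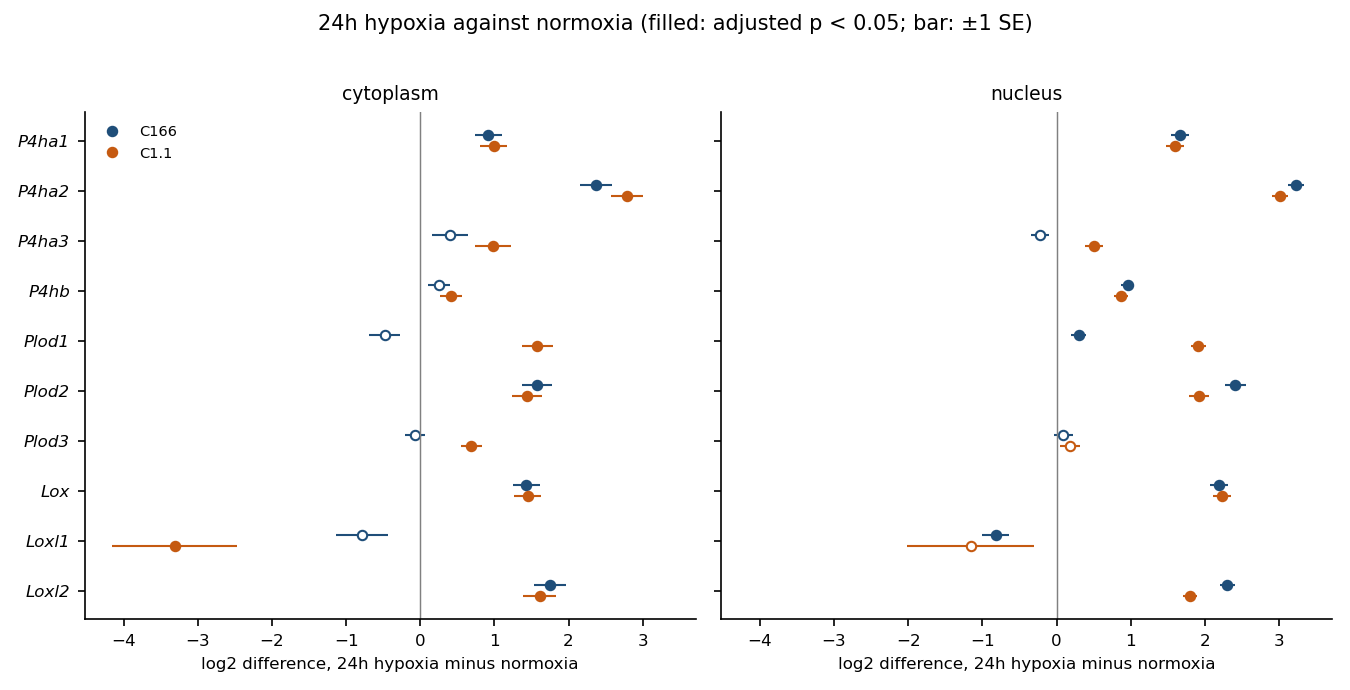
Log2 difference of 24h hypoxia against normoxia (x axis, bars 1 SE) for each of the 10 genes in each line and fraction, filled where the adjusted p was under 0.05. P4ha2 lies farthest to the right in all 4 comparisons, Plod1 is split by line, and the cytoplasmic Loxl1 value of C1.1 rests on 38 and 3 counts.

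After 2h of hypoxia, P4ha1, P4ha2 and Plod2 had already risen in the nucleus of both lines. In C166 nuclei 3 of the 10 genes rose and 0 fell, beside 1.37% and 0.928% of all genes tested, and in C1.1 nuclei again 3 rose and 0 fell, beside 2.08% and 1.21%. Over the 10 genes the median log2 difference was 0.04 in C166 and 0.20 in C1.1, and the other 7 genes lay between −0.22 and 0.18 in C166 nuclei, none of them called. In C1.1 nuclei, Loxl1 with its 9 and 0 counts aside, they lay between −0.15 and 0.36. The highest was Plod1, whose adjusted p of 0.0506 became 0.0158 with DESeq2 and 0.0465 with size factors by relative log expression. P4ha2 stood at 128.5, 127.9 and 116.2 CPM in C166 nuclei at 2h, more than any normoxic library (log2 difference 1.25, SE 0.10, adjusted p = 5.45e-09). In C1.1 it stood at 94.5, 97.4 and 89.2 CPM (1.17, SE 0.11, adjusted p = 3.85e-08). Plod2 was at 301.7, 225.7 and 260.1 CPM in C166 nuclei (1.32, SE 0.13, adjusted p = 1.59e-07) and at 321.7, 223.8 and 237.1 in C1.1 (1.01, SE 0.13, adjusted p = 1.77e-05), with replicate 1 highest in each. P4ha1 was at 359.3, 333.0 and 367.7 CPM in C166 nuclei (0.73, SE 0.12, adjusted p = 0.000304) and at 375.6, 312.4 and 332.4 in C1.1 (0.76, SE 0.12, adjusted p = 0.000209). None of these 3 genes overlapped its normoxic range in either nucleus, and all 6 calls held without any single library. Lox, by contrast, had log2 differences of −0.05 (SE 0.11, adjusted p = 0.97) and 0.06 (SE 0.11, adjusted p = 0.874) at 2h, and Loxl2 of 0.18 (SE 0.10, adjusted p = 0.594) and 0.13 (SE 0.10, adjusted p = 0.581), in C166 and C1.1 nuclei.

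The cytoplasm at 2h gave 1 gene higher and 0 lower in C166, beside 0.913% and 0.427% of all genes tested, and 1 higher and 0 lower in C1.1, beside 1.09% and 0.86%. In C166 this was Plod2, at 105.3, 64.5 and 58.7 CPM (log2 difference 0.86, SE 0.20, adjusted p = 0.0331). Its normoxic libraries all lay lower, but the call was lost without replicate 2 (0.80, adjusted p = 0.0988) or 3 (0.76, 0.0733) of normoxia or replicate 1 of 2h (0.56, 0.236). P4ha2 in C166 went from 23.3, 11.7 and 13.5 to 33.5, 21.5 and 22.3 CPM, overlapping (0.68, SE 0.21, adjusted p = 0.15), and without replicate 1 of normoxia the difference was 1.03 with an adjusted p of 0.00208. In C1.1 the gene called was P4ha2, at 20.4, 18.4 and 15.2 CPM (0.98, SE 0.22, adjusted p = 0.0241), and its groups did not overlap. That call was lost without any 1 of the 3 normoxic libraries or replicates 1 or 2 of 2h, with adjusted p from 0.0728 to 0.115.

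The C1.1 line was then compared with C166 in normoxia, to see how the clone without the hairpin differed before hypoxia. In the cytoplasm 5 of the 10 genes were lower and 1 higher in C1.1, beside 17.3% of all genes lower and 18.2% higher. In the nucleus 7 were lower and 1 higher, beside 21.2% and 18.8%, although with upper-quartile scaling all genes split the other way (16.5% lower, 23.3% higher) and 6 of the 10 were called, Plod2 among them and P4ha2, P4ha3 and Plod3 no longer. Over the 10 genes the median log2 difference came to −0.36 for cytoplasmic and −0.32 for nuclear RNA, beside medians of 0.06 and 0.02 over all genes. Loxl1 is counted as lower in each fraction, although it was tested only because C166 carried it past the filter. Loxl1 differed most and Lox next, Plod1 and Plod3 were lower in both fractions, and Loxl2 was higher in both. The smooth muscle and mesenchyme markers differed too, with 6 of 9 tested lower and 1 higher in the cytoplasm and 6 lower and 2 higher in the nucleus, and their part in these results was not tested.

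Loxl1 held 1525 counts over the 3 normoxic C166 cytoplasmic libraries and 38 in C1.1, a level 46.2-fold lower in the clone after scaling (95% exact interval 33.5 to 65.5). This interval and those that follow cover counting error only, and an interval from the SE of the edgeR fit, which takes in the spread between libraries, ran from −6.41 to −4.60 on the log2 scale. In the nucleus the sums were 2052 and 9 counts, or 241-fold (127 to 529). Every library of C166 lay far above every library of C1.1, and since the gene passed the filter through C166 alone, the direction of that gap was given. At 2h the cytoplasmic sums were 1597 and 9 counts (189-fold, 99.4 to 414), and in the nucleus 2101 counts stood against 0 in C1.1, which is at least 598-fold lower when the clone's group is given a floor of 3 counts. At 24h the sums were 918 and 3 counts in the cytoplasm (291-fold, 99.2 to 1410) and 1453 and 4 in the nucleus (327-fold, 127 to 1200). Adjusted p-values of Loxl1 between the lines are not given here, because its place among the genes tested came from C166 alone.

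Lox in normoxic C1.1 lay below every C166 library in both fractions, by the CPM given above, with log2 differences of −1.15 in the cytoplasm (SE 0.18, adjusted p = 4.77e-05) and −1.08 in the nucleus (SE 0.11, adjusted p = 2.36e-08). Plod1 was lower in the cytoplasm (−0.70, SE 0.21, adjusted p = 0.0144) and in the nucleus (−0.55, SE 0.10, adjusted p = 0.0001), and its cytoplasmic call was lost without replicate 3 of C1.1 (−0.53, adjusted p = 0.0926). P4hb was lower in the nucleus, where its groups did not overlap (−0.32, SE 0.09, adjusted p = 0.00439). Loxl2 was higher in the nucleus (0.41, SE 0.10, adjusted p = 0.00178), again without overlap, and in the cytoplasm (0.64, SE 0.22, adjusted p = 0.0299). The cytoplasmic call of Loxl2 was lost without replicate 1 of C166 (0.38, adjusted p = 0.116) and without any 1 of the C1.1 libraries, and that of P4ha2 (−0.82, SE 0.22, adjusted p = 0.00626) without replicate 1 of C166 (−0.46, adjusted p = 0.0537).

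The smaller normoxic differences were less steady. Plod3 was lower in the cytoplasm (−0.42, SE 0.14, adjusted p = 0.0254) and in the nucleus (−0.43, SE 0.13, adjusted p = 0.0129). Its cytoplasmic call was lost without replicate 3 of C166 or replicates 2 or 3 of C1.1 (adjusted p 0.069 to 0.121). Its nuclear call was lost without replicate 2 of C166 or replicate 1 of C1.1 (adjusted p 0.0565 to 0.0686), although the 3 clone libraries, from 127.3 to 145.8 CPM, all lay below those of C166. In the nucleus P4ha2 (−0.32, SE 0.11, adjusted p = 0.017) and P4ha3 (−0.31, SE 0.12, adjusted p = 0.0401) were lower in C1.1, each without overlap. The P4ha2 call was lost without replicates 2 or 3 of C166 or 1 or 2 of C1.1 (adjusted p 0.0508 to 0.128), and that of P4ha3 without replicates 1 or 2 of C166 or 1 or 3 of C1.1 (adjusted p 0.0837 to 0.198). P4ha1 did not pass the test in either fraction (−0.24, adjusted p = 0.322, and −0.09, adjusted p = 0.59), nor did Plod2 (−0.18, adjusted p = 0.511, and 0.30, adjusted p = 0.0667). Without replicate 3 of C166 nuclei the Plod2 difference was 0.38 with an adjusted p of 0.0472.

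At 24h the 2 lines were compared again within each fraction. In the cytoplasm 2 of the 10 genes were lower and 1 higher in C1.1, beside 16.5% and 14.6% of all genes, and in the nucleus 4 were lower and 2 higher, beside 20.8% and 18.7%. Plod1, the lower gene of the clone in normoxia, was now higher in it, by 1.36 on the log2 scale in the cytoplasm (SE 0.21, adjusted p = 5.15e-05, 2.57-fold) and by 1.07 in the nucleus (SE 0.10, adjusted p = 2.43e-09, 2.10-fold). Lox stayed lower in the clone, by −1.13 in the cytoplasm (SE 0.18, adjusted p = 6.27e-05) and −1.04 in the nucleus (SE 0.11, adjusted p = 3.69e-08). Loxl1 was the other gene counted as lower in both fractions, but it was tested only because C166 carried it past the filter. Apart from it, only Lox was called lower in the cytoplasm. In the nucleus P4ha2 (−0.55, SE 0.10, adjusted p = 7.35e-05) and P4hb (−0.41, SE 0.09, adjusted p = 0.000462) were lower and P4ha3 was higher (0.40, SE 0.12, adjusted p = 0.00826). The P4ha3 call was lost without replicate 1 of C1.1 nuclei at 24h (0.32, adjusted p = 0.0597). Loxl2 in the cytoplasm (0.50, adjusted p = 0.0863) became a call without replicate 1 of C166 at 24h (0.77, adjusted p = 0.0115). Plod3 in the nucleus (−0.33, adjusted p = 0.0512) did so without replicate 1 of C166 (−0.51, 0.000574) or of C1.1 (−0.46, 0.0129). Smooth muscle and mesenchyme markers were lower in C1.1 for 5 of 9 genes tested and higher for 2 in each fraction at 24h, and their part was not tested.

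**Figure D4:**
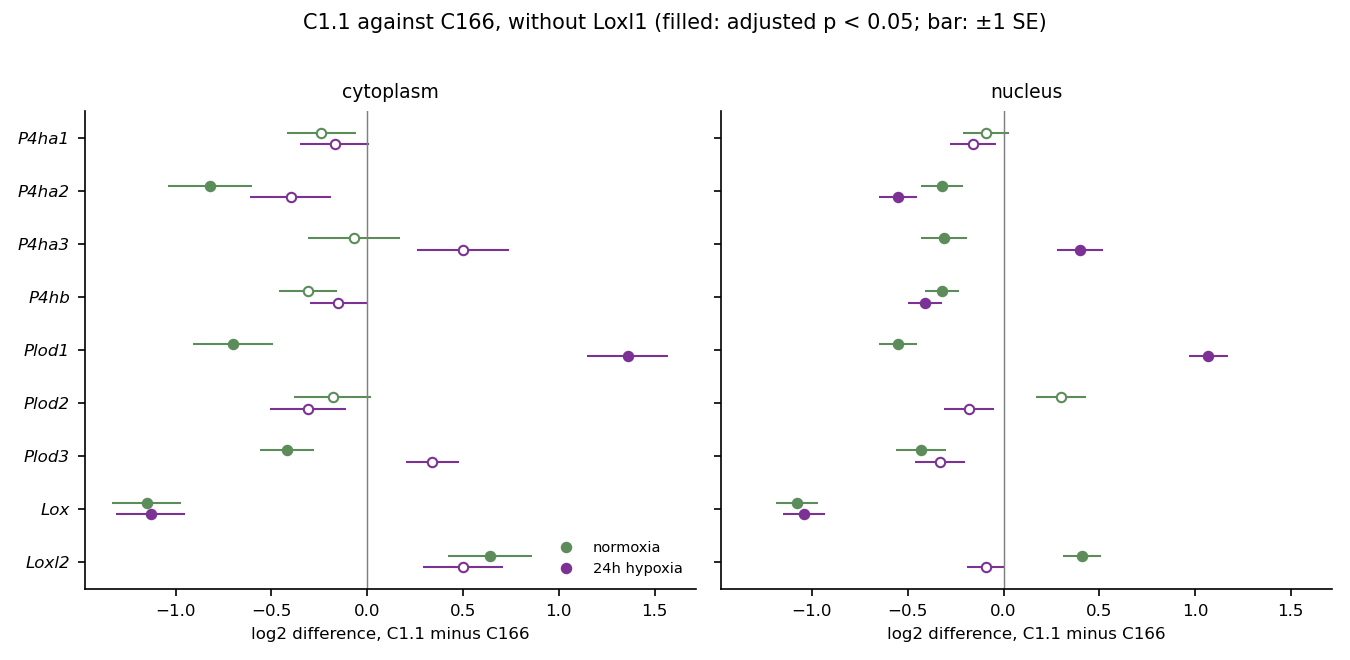
Log2 difference of C1.1 against C166 (x axis, bars 1 SE) for the 9 genes other than Loxl1, in normoxia and at 24h in each fraction, filled where the adjusted p was under 0.05. Lox lies near −1 in all 4 comparisons and Plod1 crosses from −0.70 and −0.55 in normoxia to 1.36 and 1.07 at 24h.

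Whether the clone responded differently was tested directly, as the difference between the 24h responses of the lines. In the cytoplasm 2 of the 10 genes had a larger response in C1.1 and 0 a smaller one, beside 1.39% and 0.94% of all genes, and in the nucleus 2 had a larger and 1 a smaller response, beside 2.89% and 1.87%. With upper-quartile scaling the nuclear split of all genes turned to 2.09% and 2.92%, with 3 members called. Of the 9 smooth muscle and mesenchyme markers tested, Acta2, Cnn1, Myl9 and Dcn had a larger response in C1.1 and 0 a smaller one in each fraction (median difference 0.91 in the cytoplasm and 1.27 in the nucleus), and their part was not tested. Plod1 was called in both fractions, by 2.06 on the log2 scale in the cytoplasm (SE 0.30, adjusted p = 0.000654) and by 1.62 in the nucleus (SE 0.14, adjusted p = 6.96e-08), and neither call was lost without any single library. P4ha3 had a larger nuclear response in C1.1 (0.72, SE 0.17, adjusted p = 0.0132), lost without replicate 2 of normoxic C166 nuclei (0.65, adjusted p = 0.0515) or replicate 1 of normoxic C1.1 nuclei (0.65, 0.0506). In the cytoplasm the P4ha3 difference was 0.57 (SE 0.34, adjusted p = 0.43), and 0.90 with an adjusted p of 0.0159 without replicate 1 of normoxic C166. Plod3 had a larger cytoplasmic response (0.76, SE 0.20, adjusted p = 0.0462) and Loxl2 a smaller nuclear one (−0.50, SE 0.14, adjusted p = 0.0361). Both were lost without any 1 of 9 of their 12 libraries, with adjusted p from 0.0531 to 0.134 for Plod3 and from 0.0529 to 0.142 for Loxl2. Plod3 kept its call without replicate 1 of normoxic C166, 24h C166 or normoxic C1.1, and Loxl2 without replicate 3 of normoxic C166, replicate 1 of 24h C166 or replicate 3 of 24h C1.1.

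P4ha1, P4ha2, Plod2 and Lox rose in both lines and fractions, and the difference of their responses was not called. For P4ha1 the cytoplasmic value was 0.07 (SE 0.26, adjusted p = 0.929) and the nuclear value −0.07 (SE 0.17, adjusted p = 0.877). For Lox it was 0.02 (SE 0.25, adjusted p = 0.984) and 0.04 (SE 0.16, adjusted p = 0.941). P4ha2 gave 0.42 (SE 0.30, adjusted p = 0.527) and −0.23 (SE 0.14, adjusted p = 0.424), and Plod2 −0.13 (SE 0.28, adjusted p = 0.867) and −0.48 (SE 0.18, adjusted p = 0.135). With no filter on low counts the nuclear Plod2 difference became a call (−0.45, SE 0.13, adjusted p = 0.0215). Loxl2 in the cytoplasm was at −0.14 (SE 0.31, adjusted p = 0.87).

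Between fractions, the transcripts of 9 of the 10 genes took a larger share of nuclear than of cytoplasmic counts in normoxic C166, and 0 a smaller one, beside 31.8% and 26.2% of all 16682 genes tested over both fractions. In normoxic C1.1 8 were higher in the nucleus, beside 28.6% and 29.0%, and Loxl1, tested only through C166, counts as lower. The shares of all genes depended on the scaling: with relative log expression C166 had 35.5% higher and 23.1% lower, C1.1 had 34.5% higher and 23.5% lower, and the median of all genes moved by 0.12 and 0.21. The median log2 difference between nucleus and cytoplasm was 1.18 in C166 and 1.24 in C1.1, beside 0.17 and 0.03 over all genes. Related genes shared this lean. All 11 collagen genes tested were higher in the nucleus in both lines (medians 2.80 and 2.38). Of 14 other collagen modification and folding genes, 11 were higher and 0 lower in C166, and 8 higher and 1 lower in C1.1. Of 12 disulfide isomerases and oxidases, 8 and 6 were higher and 0 lower. Plod1 (1.75, SE 0.15, adjusted p = 4.33e-12) and Plod3 (1.73, SE 0.15, adjusted p = 1.21e-12) were the most nuclear in C166, and P4ha2 (2.06, SE 0.17, adjusted p = 1.14e-12) and Plod1 (1.87, SE 0.16, adjusted p = 1.04e-12) in C1.1. Lox was the gene not called in either line (−0.27, SE 0.16, adjusted p = 0.143, and −0.22, SE 0.16, adjusted p = 0.246). CPM give shares of a library, so these values do not count molecules per compartment. The C166 call of Loxl1 (0.80, SE 0.28, adjusted p = 0.0157) was lost without replicate 1 of the cytoplasm (0.46, adjusted p = 0.0904) or replicate 2 of the nucleus (0.70, 0.085). In C1.1 its 38 cytoplasmic and 9 nuclear counts gave a 3.05-fold lower nuclear level (1.45 to 7.17, counting error only), with no test given. The P4ha3 call of C1.1 (0.60, SE 0.20, adjusted p = 0.00892) was lost without replicate 1 of the cytoplasm or replicates 2 or 3 of the nucleus (adjusted p 0.0565 to 0.125).

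After 24h the ratio of nucleus to cytoplasm was called higher than in normoxia for several transcripts, in calls that were not steady. In C166 the ratio of nucleus to cytoplasm rose for 6 of the 10 genes and fell for 0, beside 3.25% and 5.17% of all genes, and in C1.1 it rose for 1 and fell for 0, beside 6.76% and 4.29%, a split that turned to 5.67% and 6.02% with relative log expression. The C166 shifts were 0.72 for P4ha1 (SE 0.23, adjusted p = 0.0413), 0.84 for P4ha2 (SE 0.23, adjusted p = 0.0167), 0.69 for P4hb (SE 0.18, adjusted p = 0.014), 0.75 for Plod1 (SE 0.22, adjusted p = 0.0238), 0.81 for Plod2 (SE 0.25, adjusted p = 0.0368) and 0.74 for Lox (SE 0.23, adjusted p = 0.0351). In C1.1 the shift of Lox was 0.79 (SE 0.23, adjusted p = 0.0188), lost without replicate 3 of C1.1 nuclei at 24h (0.63, adjusted p = 0.0927). The C1.1 values of P4ha1 (0.62), P4ha2 (0.22), P4hb (0.47), Plod1 (0.34) and Plod2 (0.49) were also above 0 but were not called. With only the libraries compared, 0 members were called in C166 and 4 in C1.1. A difference between the lines in this shift was not tested. None of the 6 C166 shifts held in every leave-out. Without replicate 1 of normoxic C166 cytoplasm, P4ha1 (0.69, adjusted p = 0.0691), P4ha2 (0.50, 0.14), Plod1 (0.61, 0.0817), Plod2 (0.65, 0.12) and Lox (0.70, 0.064) were no longer called, and Loxl2 was (0.80, 0.0118). Of the 12 C166 libraries left out in turn, all except replicate 3 of normoxic cytoplasm and replicate 1 of cytoplasm at 24h ended at least 1 call, with adjusted p up to 0.158. P4hb was lost in 4 cases (adjusted p 0.0511 to 0.0695), P4ha2 in 4, Plod1 in 5, Plod2 in 6, P4ha1 in 7 and Lox in 9. Without replicate 3 of normoxic C166 cytoplasm P4ha3 became a call (−0.96, adjusted p = 0.0133), and without replicate 1 at 24h Loxl2 did (0.80, 0.0237). In C1.1 P4ha1 became one without replicate 1 of cytoplasm at 24h (0.81, adjusted p = 0.0181) and P4hb without replicate 3 of normoxic cytoplasm (0.60, 0.0433).

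**Figure D5:**
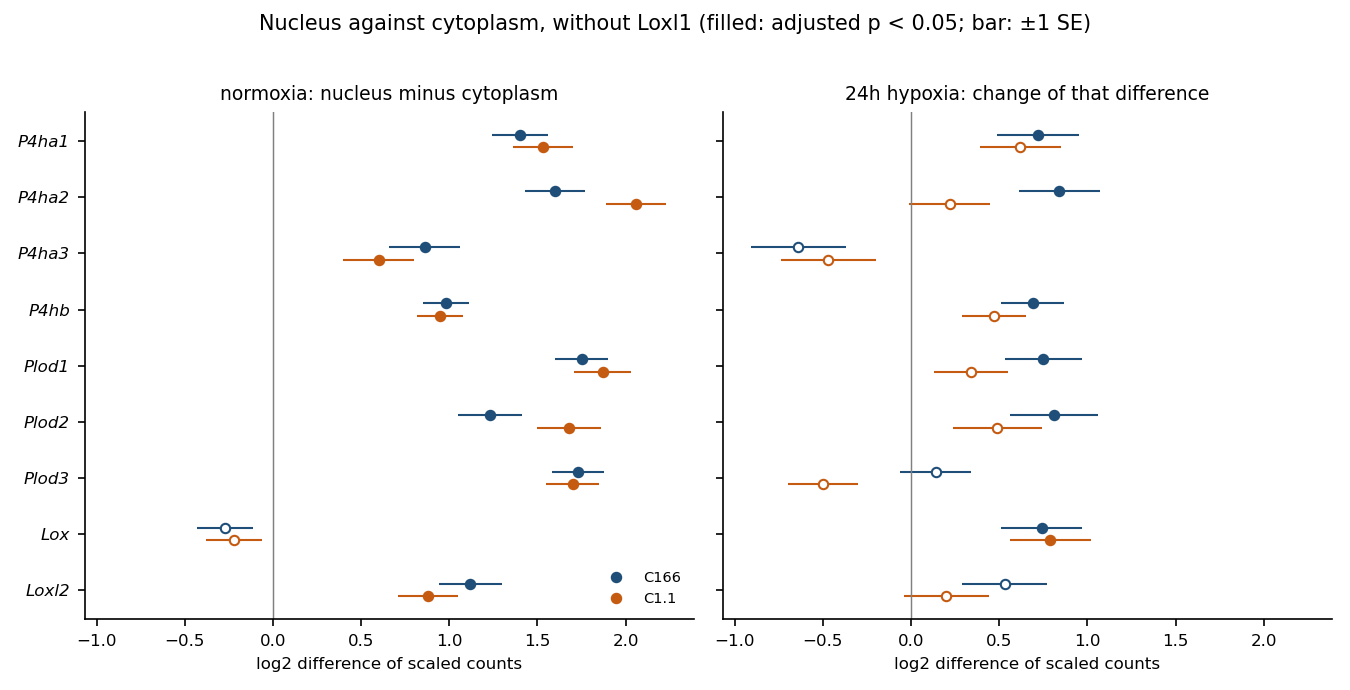
Log2 difference of nucleus against cytoplasm in normoxia, and its shift at 24h (x axis, bars 1 SE), for the 9 genes other than Loxl1 in each line, filled where the adjusted p was under 0.05. Lox lies near 0 in normoxia at −0.27 and −0.22 and shifts by 0.74 and 0.79 at 24h.

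The other genes of collagen modification and folding, a list of prolyl 3-hydroxylases, chaperones and further lysyl oxidases, were mixed at 24h, with the shares of all genes as given for these comparisons above. In C166 cytoplasm 3 of 13 tested rose and 6 fell (median log2 difference −0.46) and in C1.1 cytoplasm 2 rose and 7 fell (−0.39). Fkbp10, a chaperone that works with the lysyl hydroxylases, fell in the cytoplasm by 1.07 in C166 (SE 0.15, adjusted p = 1.14e-05) and 0.77 in C1.1 (SE 0.15, adjusted p = 0.000309) on the log2 scale. Serpinh1, the collagen chaperone HSP47, fell by 0.79 (SE 0.16, adjusted p = 0.000501) and 1.13 (SE 0.16, adjusted p = 8.63e-06). Among nuclear libraries C166 had 4 of 14 higher and 2 lower (median 0.20), and C1.1 6 higher and 1 lower (0.23). Loxl4, a lysyl oxidase, rose there by 1.00 (SE 0.12, adjusted p = 3.81e-07) and 0.58 (SE 0.13, adjusted p = 0.000522), and P3h3, a prolyl 3-hydroxylase, by 1.47 (SE 0.12, adjusted p = 5.29e-10) and 0.99 (SE 0.12, adjusted p = 2.66e-07). Among the disulfide isomerases and oxidases of the endoplasmic reticulum, 2 of 12 rose and 7 fell in C166 cytoplasm and 1 rose and 7 fell in C1.1 cytoplasm (medians −0.53 and −0.66). The nuclear counts were 2 higher and 0 lower in C166 and 4 higher and 0 lower in C1.1 (medians 0.10 and 0.21). Ero1l, the oxidase that recharges the protein of P4hb, rose in the cytoplasm by 2.22 (SE 0.17, adjusted p = 4.09e-09) and 2.17 (SE 0.17, adjusted p = 4.33e-09).

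The substrates were mixed, and the shares of all genes at 24h are those given above for these comparisons. Of 11 collagen genes tested, 2 rose and 4 fell in C166 cytoplasm at 24h and 4 rose and 3 fell in C1.1. Among nuclear libraries C166 had 5 higher and 5 lower, and C1.1 6 higher and 3 lower. Col3a1 and Col5a1, chains of fibrillar collagens, rose in all 4 comparisons, while Col5a2, another fibrillar chain, fell in all 4, as did Col4a1 and Col4a2 of basement membrane collagen, and these genes were singled out after their values were seen. In normoxia 7 of the 11 were lower and 1 higher in C1.1 cytoplasm, beside 17.3% and 18.2% of all genes. In the nucleus 8 were lower and 2 higher, beside 21.2% and 18.8%, shares that turned to 16.5% and 23.3% with upper-quartile scaling. Col1a1, the main chain of fibrillar collagen, was lower by −0.87 in the cytoplasm (SE 0.16, adjusted p = 0.000318) and −1.30 in the nucleus (SE 0.12, adjusted p = 2.82e-09). Of the procollagen export and processing genes, 2 of 10 rose and 0 fell at 24h in C166 cytoplasm, 2 rose and 2 fell in C1.1 cytoplasm, and 5 rose and 2 fell in each nucleus.

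The genes whose group means ran most like those of a member over the 12 groups were found by Pearson's r, as a description in which the points share lines, times and fractions. Plod2 had P4ha1 as its closest gene (r = 0.983), with Clcn3 (0.983) and the glucose transporter gene Slc2a1 (0.981) beside it. P4ha1 was closest to Tpp1 (0.993), P4ha2 to Fam50a (0.978) and P4ha3 to Dopey2 (0.926). Plod1 was closest to the oncostatin M receptor gene Osmr (0.973) and Plod3 to Utrn (0.989), with Col1a2 (0.986) next. Lox was closest to Npr3 (0.980), Loxl1 to Mecom (0.987) and Loxl2 to Adcy7 (0.982). Within the 10 genes and a single fraction, P4ha1 and Plod2 gave r = 0.99 in the cytoplasm and in the nucleus over 6 group means. In the nucleus P4hb and Lox gave 1.0, and P4ha1 and P4ha2 gave 0.99. Nuclear Loxl1 was nearest to Plod3 (0.92), but the cytoplasmic value of that pair was 0.20. The C1.1 nuclear groups of Loxl1 held only 9, 0 and 4 counts.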

How the data were processed

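RNA of the cytoplasmic and nuclear fractions of C166 and C1.1 cells was sequenced in 36 libraries. The authors deposited raw counts per gene, which were used as given: 26400 rows with 0 columns left unmatched to a sample. Per the labels the genome build was GRCm38, and the submitters' processing notes name Bowtie2 2.2.2, TopHat2 2.0.11, Cufflinks 2.2.1, Cuffdiff, featureCounts and edgeR, with no roles. The strand setting is not given in the sources used here. A normalised block and the authors' own fold changes, standard errors and p-values were not used.

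Genes passing filterByExpr (14998 in cytoplasm, 15735 in nucleus, 16682 for both together) were TMM scaled and tested with edgeR 4.0.16 (limma 3.58.1, R 4.3.3) by the quasi-likelihood test over the 18 libraries of a fraction, or all 36 for comparisons between fractions. P-values were adjusted by Benjamini-Hochberg over all genes and called under 0.05. SE was the log2 difference over the square root of F. The log2 CPM used a prior count of 2. edgeR's common biological coefficient of variation came to 0.213 for cytoplasm and 0.135 for nucleus, so nuclear differences were measured more precisely. Ratios of Loxl1 counts have exact conditional intervals at 95%, and the floor was 3 counts over a group. Levels per kilobase used exon unions of GENCODE on GRCm38, and promoters came from RefSeq on GRCm38.p6.

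All 10 members were tested in every comparison, but the value of each is not given for every one. Of each other list, up to 4 genes with the smallest p in a comparison could be named, and 3 genes per member were found by likeness over the 12 group means, of which those of P4hb are not reported here. Members, lists and naming were chosen with earlier results of these data known. Alternatives were DESeq2 1.42.0, other scalings, no filter, only the libraries compared, the replicate block and leaving out each library. No 2 libraries were copies. The scripts were tested on simulated data.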

Additional observations from a re-analysis of the deposited data

Results flagged for a closer look

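The response to 24h of hypoxia differed between the lines, by the test of that difference, for Plod1 in the cytoplasm (log2 difference of responses 2.06) and in the nucleus (1.62), and for Plod3 in the cytoplasm (0.76). In the nucleus it differed for P4ha3 (0.72) and, with a smaller response in C1.1, for Loxl2 (−0.50). The calls of Plod3 and Loxl2 were lost without any 1 of 9 of their 12 libraries, and that of P4ha3 without either of 2.

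The change at 24h differed between nucleus and cytoplasm in C166 for P4ha1 (0.72), P4ha2 (0.84), P4hb (0.69), Plod1 (0.75), Plod2 (0.81) and Lox (0.74), always larger in the nucleus. In C1.1 it differed for Lox (0.79), a call lost without 1 of 12 libraries. In C166 0 of the 6 calls held in every leave-out, and 0 members were called with only the libraries compared. The cause of these differences was not tested.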

How the results depend on the processing

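Over the 18 comparisons no called member value reversed its direction under an alternative. Values that were not called did, in 44 cases over 23 of 180 results, with a size of at most 0.34, and 0 of them were calls after the turn. Of 180 member results, DESeq2 left 173 on their side of the threshold, size factors by relative log expression 178, upper-quartile scaling 174 and no filter on low counts 157, and a fit of only the libraries compared left 148 of 174. The other 6 values of that fit were those of Loxl1 within C1.1, which did not pass the filter there.

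The number of members called moved past 1.5 times as follows. For C166 at 2h in cytoplasm it was 1, and 3 with no filter and 0 with only the libraries compared. For C1.1 at 2h in cytoplasm it was 1, and 3 with DESeq2, 5 with no filter and 5 with only the libraries compared. Loxl1, with 38 and 9 counts, is among those called with DESeq2 and with no filter. P4hb was called lower under all of these settings, and Lox was called lower with no filter and with only the libraries compared. For C1.1 at 2h in the nucleus it was 3, and 5 with DESeq2, Loxl1 with its 9 and 0 counts among them. Between lines in cytoplasm, with Loxl1 counted, it was 6 in normoxia and 2 with only the libraries compared. At 24h it was 3, and 7 with no filter or only the libraries compared. The difference of responses in cytoplasm gave 2, and 1 with only the libraries compared. The C166 shift gave 6 and 0 with only the libraries compared, and the C1.1 shift 1, with 2 under DESeq2 and 4 with no filter or only the libraries compared. The cause was not tested.

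Leaving out 1 library at a time, the members called ranged from 0 to 2 and 5 to 6 in C166 cytoplasm at 2h and 24h, and from 0 to 1 and 9 to 10 in C1.1. The C1.1 range at 24h counts Loxl1, which was tested there only through C166. In the nucleus the ranges were 3 to 3 and 7 to 8 in C166 and 3 to 3 and 8 to 8 in C1.1. Between lines, with Loxl1 counted, they were 3 to 6 in normoxia and 3 to 4 at 24h in cytoplasm, and 5 to 8 and 6 to 7 in the nucleus. For the difference of responses they were 1 to 3 in each fraction. Between fractions they were 8 to 9 in C166 and 7 to 9 in C1.1, with Loxl1 counted in C1.1 where it was called. For the shift they were 0 to 7 and 0 to 2.

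The replicate numbers are shared by the groups in the labels, but libraries of the same number did not deviate together (correlations −0.07 to 0.08 in cytoplasm and −0.13 to 0.10 in the nucleus). Between the fractions of the same line, time and number they ran from −0.05 to 0.23, with 1 of 18 over 0.1. With the replicate block, 174 of 180 member results kept their side of the threshold, 2 members were called in C166 at 2h in cytoplasm, 3 in C1.1, and 1 for the difference of responses in cytoplasm. Low counts limit what can be said of Loxl1 in C1.1, where no group of 3 libraries held more than 38 counts.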
